A study of Homo sapiens with 160 samples.

Results

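Indacaterol, a long-acting β-agonist given by inhalation as a bronchodilator, was compared with vehicle after 2 h by RNA sequencing of BEAS-2B, a line of human bronchial epithelial cells immortalised with viral genes. The comparison consists of the 5 libraries labelled indacaterol and the 5 labelled vehicle (NS in the titles) at 2 h, which are 10 of the 160 samples of the series and of the 150 whose values were used. In both groups the cells were wild type, had been grown to confluence with serum and were then left overnight without it. The treated cells received indacaterol at 100 nM and no other agent, and the control cells received vehicle only. The same pair of groups at 1, 6 and 18 h (10, 10 and 9 libraries) shows how the response changed with time. 3 further pairs at 2 h show the response to indacaterol on top of another agent, each against that agent alone. These agents were carbachol, a muscarinic agonist, at 10 µM, mometasone, a glucocorticoid, at 100 nM, and both together. No library is shared between these 7 comparisons. All cells belong to 1 line, and the labels do not say that replicates were separate cultures, so the p-values rest on the spread between libraries that may be technical replicates.

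β-agonists act through the stimulatory G protein on adenylyl cyclase, and the cyclic AMP so made releases the catalytic subunits of protein kinase A. The kinase phosphorylates the transcription factor CREB at cyclic AMP response elements, and it also inactivates the salt-inducible kinases, which otherwise keep the CREB co-activators (CRTC) out of the nucleus. Early targets of this pathway include genes that limit it, such as phosphodiesterases, which destroy cyclic AMP, together with transcription factors of the NR4A family, which have no known physiological ligand and are controlled mainly by their own abundance. In the airway the pathway is known for relaxing smooth muscle and for changing the release of mediators from epithelium.

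Promoter sequences are shown first because the response is best known for 1 short element. The full cyclic AMP response element is the palindrome TGACGTCA, and its core TGACG (or CGTCA on the opposite strand) occurs alone in many promoters. Both strands were searched in RefSeq windows (GRCh38.p14) from 250 bases before to 50 bases after a gene's start, and each match of the full element also holds matches of the core. The sequences below run 5′ to 3′ along the gene and end at the base before the start, with the full element or the core in capitals. NR4A3 and CRISPLD2 had the largest rises. DUSP1 and CGA, the latter the glycoprotein hormone α subunit whose paired elements are a classical example, were chosen after their values were seen because they rose and hold the full element.
NR4A3, chr9:99821635-99821884, plus strand: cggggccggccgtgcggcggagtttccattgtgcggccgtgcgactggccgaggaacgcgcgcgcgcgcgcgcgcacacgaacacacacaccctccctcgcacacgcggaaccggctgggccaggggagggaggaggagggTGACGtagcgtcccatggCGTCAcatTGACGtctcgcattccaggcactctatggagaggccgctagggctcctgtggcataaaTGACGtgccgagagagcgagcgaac
CRISPLD2, chr16:84819735-84819984, plus strand: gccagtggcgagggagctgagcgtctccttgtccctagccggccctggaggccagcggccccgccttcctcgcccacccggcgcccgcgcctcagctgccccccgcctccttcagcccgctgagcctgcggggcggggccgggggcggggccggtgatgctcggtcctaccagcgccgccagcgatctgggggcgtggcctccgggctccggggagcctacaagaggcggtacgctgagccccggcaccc
DUSP1, chr5:172771196-172771445, minus strand: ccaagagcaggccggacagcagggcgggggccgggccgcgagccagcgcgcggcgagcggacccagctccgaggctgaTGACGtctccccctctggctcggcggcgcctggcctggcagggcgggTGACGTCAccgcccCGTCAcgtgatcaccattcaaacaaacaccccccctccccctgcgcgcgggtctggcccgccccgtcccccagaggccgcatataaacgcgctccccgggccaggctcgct
CGA, chr6:87095107-87095356, minus strand: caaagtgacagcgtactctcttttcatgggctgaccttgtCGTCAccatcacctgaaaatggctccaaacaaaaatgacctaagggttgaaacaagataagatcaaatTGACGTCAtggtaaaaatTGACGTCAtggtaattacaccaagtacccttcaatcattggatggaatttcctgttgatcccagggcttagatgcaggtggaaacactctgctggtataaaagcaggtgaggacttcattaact

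The NR4A3 window held 4 cores and no full element, and the CRISPLD2 window held neither. In DUSP1 the full element began 125 bases before the start, and in CGA full elements began 142 and 124 bases before it. Of the 27305 genes with a window, 2.25% held the full element and 28.4% the core. Among the 10864 genes of the table with a window that were tested, 3.72% held the full element. Of the genes that rose with indacaterol, 29 held it (8.24% of the 352 matched to a window), but 352 of 444 is 79.3%, so too few were matched for a comparison of these shares. These 29 genes held 31 full elements, of which 23 began within 100 bases before a start. None of the 20 largest rises described here held the full element in a window of the table, and SIK1B, NR4A2, KRT17 and SLC2A3 have no window there. A match is a description of the sequence and not a binding site.

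The values are normalised expression values as deposited, called TPM by the authors although the columns sum to between 847289 and 1498421, and the read depth behind them is unknown. VIM, KRT8 and KRT18, which mark this line, averaged 1446 ± 254, 386 ± 98.9 and 489 ± 100 in vehicle (SD, n = 5 here and below), with CDH1 at 4.30 ± 1.09, KRT5 at 0.44 ± 0.44 and the epithelial markers EPCAM and TP63 too low to be tested. The 12 line markers summed to 2020 to 3240 in vehicle and 1930 to 2670 with indacaterol, and none of the 10 tested was called. The blood cell markers summed to 15.3 to 19.8 and 15.6 to 22.1, nearly all CD68, with CD3E and HBB at 0 in all 10 libraries. The 12 markers of endothelium, fibroblasts and muscle summed to 651 to 887 and 778 to 961, mostly COL1A1 (651 ± 69.8 and 697 ± 64.0), and of these COL3A1 rose. Replicate 1 of indacaterol stood apart, with 27.7% of its summed values in the 13 mitochondrially encoded genes, against 8.69 to 13.7% in the other indacaterol libraries and 9.4 to 15.9% in vehicle. The mean share was 14.1% ± 7.86 with indacaterol and 12.3% ± 2.59 with vehicle (exact two-sided permutation test over 252 splits, p = 0.849). Without that library, the numbers of rises and falls stayed the same in 23 of the 38 gene lists examined, moved by 1 in 14, and moved by more in 1, the mitosis list.

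Indacaterol raised 444 of 14827 tested genes (2.99%) and lowered 135 (0.911%) at an adjusted p below 0.05. The test was limma's moderated test on log2(value + 1), with Benjamini-Hochberg adjustment over all tested genes, and a log2 change of 1 is a 2-fold change of value + 1. The rises were larger than the falls. At least 2-fold changes numbered 195 rises (1.32% of tested genes) and 7 falls (0.0472%), at least 4-fold changes 36 rises and 2 falls (EGR1 and the 5S ribosomal RNA pseudogene RNA5SP283), and at least 8-fold changes 10 rises and no fall. The median change was 0.92 among the genes that rose, -0.50 among those that fell, and 0.01 over all tested genes. Among all tested genes the 5 indacaterol values lay above all 5 vehicle values in 391 (2.64%) and below them in 122 (0.823%), and 346 of the genes that rose and 79 of those that fell had groups that did not overlap. Of the genes that rose, 74 had a vehicle mean below 1 and 1 of those that fell did. The deviations of same-numbered libraries correlated positively in all 5 pairs, though only at 0.142 for replicate 2. List counts below for indacaterol against vehicle at 2 h are to be read against the 2.99% and 0.911% of all tested genes. List counts given below with the replicate block are to be read against its totals over all 14827 genes. This fit, with the replicate number within each time as a block, called 974 rises and 543 falls. A fit of only these 10 libraries called 273 and 40. That fit has fewer degrees of freedom, and the cause of its lower counts was not tested. Leaving out replicate 1 of indacaterol gave 408 and 108, or 828 and 458 with the block. Of those 408 and 108, 192 and 9 were at least 2-fold, 39 and 2 at least 4-fold, and 11 and 1 at least 8-fold. With that library left out, and so with fewer values to overlap, all tested genes held 478 with indacaterol above vehicle throughout and 250 below.

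**Figure D1:**
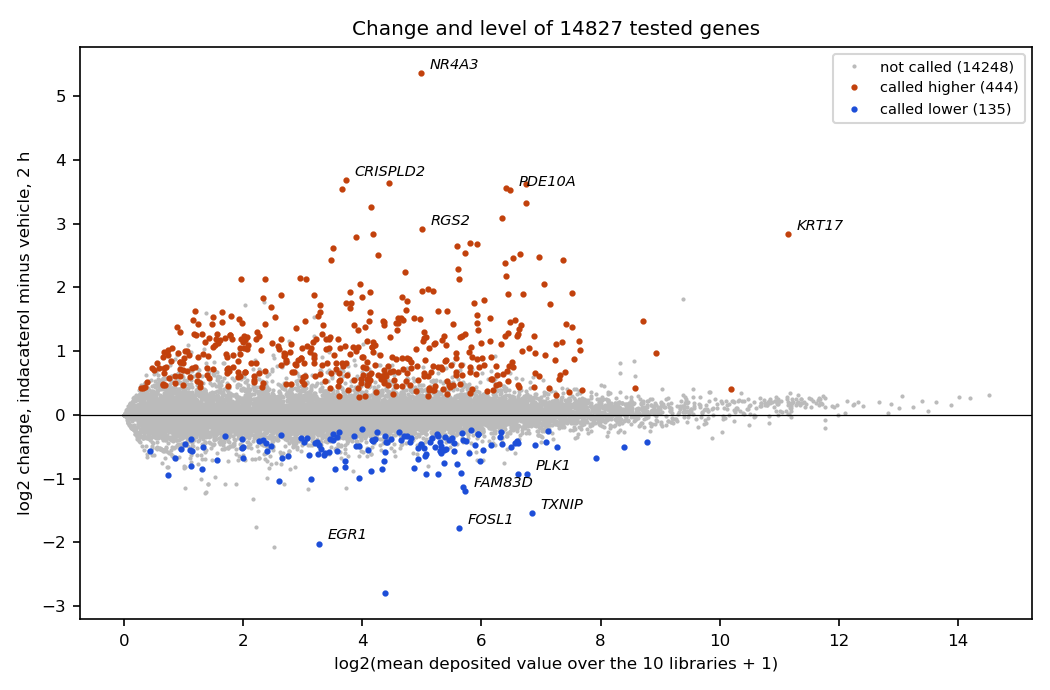
Log2 change between indacaterol and vehicle at 2 h (vertical axis) against log2 of the mean deposited value plus 1 over the 10 libraries (horizontal axis); each point is 1 of 14827 tested genes, in colour where called. The 444 rises reach a log2 change of 5.36 for NR4A3, while the 135 falls stay mostly within a log2 change of 1.

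The machinery from the cell surface to CREB was called about as often as tested genes in general. Of 32 tested genes for receptors, G proteins, adenylyl cyclases, protein kinase A, CREB and its co-activators, 1 rose and none fell, where 2.99% of all tested genes rose. The median change was 0.06 (0.01 over all tested genes). With the replicate block, which called more of all tested genes, 4 of the 32 rose. GNAS, the stimulatory G protein α subunit, averaged 1249 ± 125 and 1474 ± 289, and PRKACA, a catalytic subunit of protein kinase A, 113 ± 14.2 and 107 ± 8.34. The member that rose was AKAP12, a scaffold that tethers protein kinase A. Its values were 15, 21.5, 18.0, 23.2 and 9.22 in vehicle replicates 1 to 5 and 25.1, 59.3, 71.5, 90.8 and 44.9 with indacaterol. The groups did not overlap, and the log2 change was 1.63 ± 0.36 (SE), with an adjusted p of 0.000765.

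Phosphodiesterases rose in 3 of 15 tested members, and none fell. PDE10A, which hydrolyses cyclic AMP and cyclic GMP, had 13.7, 12.6, 20.9, 10.6 and 10.0 in vehicle and 195, 155, 160, 163 and 143 with indacaterol. Its spread with indacaterol was narrow (163 ± 19.4), and replicate 1 was its highest library. The log2 change was 3.53 ± 0.27 (adjusted p = 2.45e-21). PDE4D and PDE4B belong to the cyclic AMP-specific PDE4 family, the target of roflumilast. PDE4D went from 2.08 ± 1.18 to 18.8 ± 9.83 (log2 change 2.62 ± 0.37) and PDE4B from 1.44 ± 0.79 to 4.72 ± 2.67 (1.17 ± 0.24, adjusted p = 0.000127). For both genes replicate 3 was the highest library in vehicle and with indacaterol alike, and the PDE4B groups overlapped. PDE4A, of the same family, had 5.10 ± 1.21 and 4.72 ± 0.73 and was not called. PDE7B was near 0 in both groups at 2 h (0.37 ± 0.11 and 0.45 ± 0.10), but at 6 h it stood at 0.39 ± 0.11 in vehicle and 3.54 ± 0.61 with indacaterol (log2 change 1.70).

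The known early targets of cyclic AMP moved most. Of 23 tested members of that list, 18 rose and none fell, with a median change of 1.43, and 22 lay above 0. The list was assembled from textbook targets with earlier results of these data known, so its direction is not independent evidence. The 3 NR4A nuclear receptors were all among the 20 largest rises. NR4A3 (chr9:99821855-99866891, plus strand, GRCh38, the gene whose promoter is printed above) had 0.39, 0.56, 0.51, 0.39 and 0.21 in vehicle and 32.6, 66.7, 93.3, 75.8 and 38.5 with indacaterol. Replicates 1 and 5 were the lowest of the treated libraries, and even these were far above every vehicle library (log2 change 5.36 ± 0.30, adjusted p = 1.88e-31). NR4A2 had 0.76, 0.93, 1.1, 0.67 and 0.57 in vehicle and 9.54, 29.5, 37.2, 24.9 and 11.7 with indacaterol (log2 change 3.54 ± 0.27). NR4A1 had 13.5, 20.6, 14.7, 10.9 and 8.97 against 58.1, 139, 119, 106 and 64.0 (2.70 ± 0.25). In all 3 genes replicates 1 and 5 of indacaterol were the 2 lowest treated libraries, and the groups did not overlap.

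**Figure D2:**
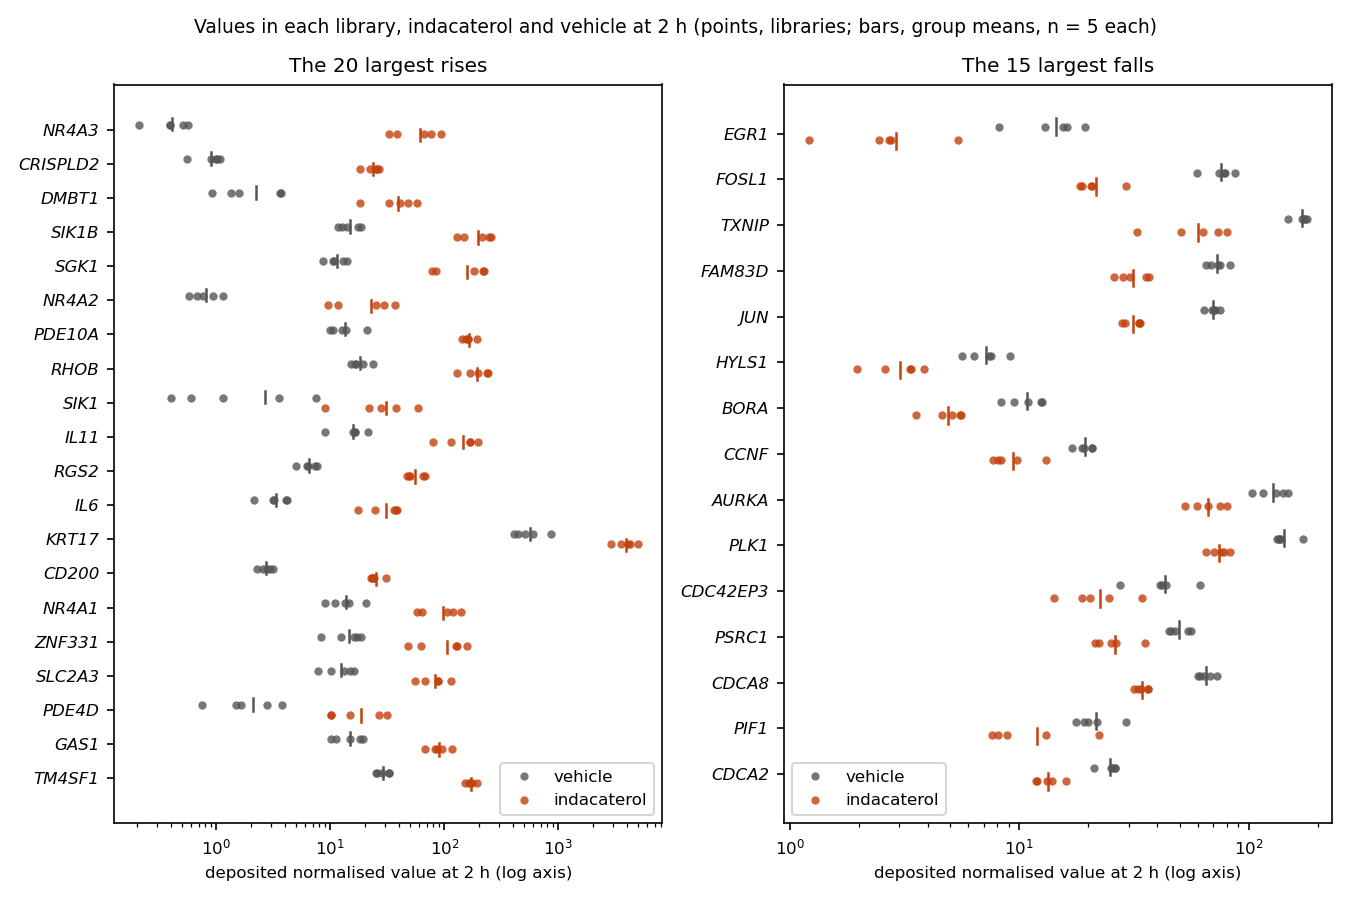
Deposited normalised value at 2 h (log axis) in each library for the 20 largest rises (left) and the 15 largest falls (right); points are libraries, bars are means of 5. Every indacaterol library lies above every vehicle library in all 20 rises, while CDC42EP3 and PIF1 overlap among the falls.

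Salt-inducible kinase 1, which opposes CRTC and is itself induced by CREB, appears as SIK1 and as its near-identical copy SIK1B, and reads may be divided between them. SIK1B had 14.0, 17.6, 18.7, 12.6 and 11.8 in vehicle and 129, 249, 257, 213 and 150 with indacaterol, a log2 change of 3.62 ± 0.18 (adjusted p = 9.97e-37). SIK1 went from 2.65 ± 3.02 to 30.9 ± 18.5, a more variable record with vehicle values between 0.40 and 7.56. SIK2 went from 6.37 to 11.7 (log2 change 0.78, adjusted p = 0.00295), while the co-activators CRTC1, CRTC2 and CRTC3 had changes of 0.05, 0.20 and 0.05 and were not called. HDAC7, a histone deacetylase which these kinases also phosphorylate, was called lower (67.0 to 54.4), and lost the call without replicate 4 or 5 of indacaterol or replicate 3 of vehicle.

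2 members of the RGS family, which switch G proteins off, moved in opposite directions. RGS2, which acts mainly on Gq and is regarded as a bronchoprotective gene, had 7.41, 6.35, 5.00, 6.27 and 7.64 in vehicle and 47.3, 67.6, 64.8, 50.2 and 49.2 with indacaterol. RGS3 had 16.1, 14.6, 14.8, 15.3 and 15.7 in vehicle and 11.9, 7.68, 6.14, 10.6 and 8.90 with indacaterol. Neither gene's groups overlapped. RGS2 rose by a log2 of 2.91 ± 0.18 (adjusted p = 2.33e-28), and RGS3 fell by 0.73 ± 0.13 (adjusted p = 1.06e-05). The other 9 tested RGS genes were not called, although 3 RGS genes were lower with the replicate block, and 2 without replicate 3 or 4 of indacaterol or replicate 5 of vehicle.

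Indacaterol split the AP-1 family. AP-1 is a dimer of FOS-type and JUN-type factors, and the members of the family replace one another with time after a stimulus. Of 13 tested members 8 rose (ATF3, FOSB, JUNB, MAFK, MAFF, FOS, FOSL2 and JDP2) and 2 fell. JUNB had 9.79, 10.5, 9.31, 7.61 and 12.7 in vehicle and 28.1, 31.3, 20.3, 28.2 and 39.4 with indacaterol (log2 change 1.46 ± 0.19, adjusted p = 4.46e-10). ATF3, a stress-responsive repressor, went from 13.3 to 57.3 and FOSB from 1.15 to 6.98. JUN had 63.8, 70.3, 75, 71.2 and 69.4 in vehicle and 29, 33.1, 28.0, 33.7 and 33.4 with indacaterol. FOSL1, which encodes FRA1, had 74.2, 87.3, 78.6, 78.1 and 59.7 in vehicle and 20.6, 29.2, 20.7, 18.8 and 18.4 with indacaterol. JUN fell by 1.13 ± 0.24 (adjusted p = 0.000359) and FOSL1 by 1.77 ± 0.20 (adjusted p = 6.69e-13), with no overlap in either. FOSL2 lost its call without replicate 3 of indacaterol or replicate 5 of vehicle.

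EGR1, a zinc-finger early gene driven by ERK and serum response factor, fell where many early genes rose. Its values were 15.5, 16.1, 8.19, 13.0 and 19.4 in vehicle and 2.77, 2.44, 1.21, 2.70 and 5.41 with indacaterol. The groups did not overlap, and EGR1 fell by 2.02 ± 0.58 (adjusted p = 0.0211), but the call was lost without replicate 3 of indacaterol, or replicate 2 or 5 of vehicle (adjusted p = 0.0837, 0.0516 and 0.0633). NAB2, a co-repressor of EGR1 and one of its targets, was also lower (43.1 to 29.6), a call lost without replicate 3 of indacaterol or replicate 1 or 2 of vehicle, and MYC was higher (44.4 to 78.9). Of the 9 tested genes of this group, 1 rose and 2 fell. Feedback regulators of ERK and other MAP kinases gave 4 rises and 1 fall in 21 tested, with a median change of -0.08, and 5 falls with the replicate block. The fall was of ETV4, an ETS factor downstream of ERK, and was lost without replicate 3 or 5 of indacaterol or replicate 1 or 2 of vehicle. All 4 rises were dual-specificity phosphatases. DUSP1, whose promoter holds the full element shown above, had 51.6, 50.3, 53.8, 41.2 and 50 in vehicle and 148, 254, 286, 214 and 166 with indacaterol (log2 change 2.05 ± 0.18). DUSP8 went from 11.8 to 33.8 (1.43 ± 0.26), and DUSP4 and DUSP10 changed by less, with DUSP4 losing its call without replicate 2, 3 or 4 of indacaterol or replicate 5 of vehicle.

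Secreted mediators rose in a few members of each family. Of 17 tested cytokines and chemokines 4 rose and none fell, and the median change was 0.13. IL11, a cytokine of the IL-6 family, had 15.9, 21.5, 16.5, 16.5 and 9.04 in vehicle and 115, 167, 169, 199 and 79.1 with indacaterol. IL6 itself had 4.16, 3.18, 3.11, 2.15 and 4.12 against 17.5, 37.9, 36.3, 38.7 and 24.5. For both, replicates 1 and 5 were the lowest treated libraries, and no treated library reached down to vehicle (log2 changes 3.09 ± 0.29 and 2.84 ± 0.23). SOCS3, the feedback inhibitor of this cytokine family, went from 9.95 to 38.9 (1.84 ± 0.18), the only one of 11 tested IL-6 family receptors and signalling genes to be called. CCL2, which recruits monocytes, had 63.6, 64.2, 54.7, 68.3 and 70.2 in vehicle and 247, 201, 156, 260 and 228 with indacaterol (1.73 ± 0.19). CXCL2, a neutrophil chemokine, went from 0.77 ± 0.46 to 4.22 ± 1.45.

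NF-κB subunits and feedback genes gave 5 rises and no fall in 14 tested, with a median of 0.42. BCL3, an IκB-like co-factor, had 19.5, 10.2, 10.5, 6.29 and 13.2 in vehicle and 92.1, 46.5, 24.3, 40.6 and 47.3 with indacaterol, with replicate 1 the highest in both groups (log2 change 1.94 ± 0.26). NFKBIA, which encodes IκBα, went from 22.5 to 31.5 (0.47 ± 0.11), and ZC3H12A, an RNase that degrades cytokine transcripts, from 3.65 to 8.24. NFKB2 lost its call without replicate 1 of indacaterol or replicate 4 of vehicle, and REL lost it without replicate 3 or 4 of indacaterol or replicate 2 or 5 of vehicle.

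Among growth factors and hormones, 7 of 23 tested rose and none fell, with a median of 0.20. BDNF, a neurotrophin and a classical CREB target, had 8.25, 8.20, 8.97, 7.55 and 7.66 in vehicle and 34.6, 45.1, 53.6, 43.8 and 36.4 with indacaterol. Its log2 change was 2.24 ± 0.13 (adjusted p = 4.73e-30). EDN1 and EDN2, endothelins that constrict smooth muscle, went from 4.78 to 13.2 and from 1.81 to 6.55, and FGF18 from 0.96 to 3.57. In the TGF-β and BMP group 5 of 20 tested genes rose, and 10 with the replicate block. The follistatins FSTL3 (49.7 to 124, log2 change 1.28 ± 0.12) and FST (4.17 to 9.74), which neutralise activins, were among them, with PMEPA1, an inhibitor of TGF-β signalling, the BMP target ID3 and the ligand BMP2. CGA, the hormone subunit whose promoter is printed above, had 0.53, 0.21, 0.20, 0.24 and 0.17 in vehicle and 3.31, 2.15, 1.38, 3.80 and 1.83 with indacaterol (log2 change 1.42 ± 0.26).

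Several regulators of transcription outside the CREB family rose. In the KLF and C/EBP group 6 of 16 tested genes rose and none fell (median 0.38). CEBPD, a C/EBP factor of acute-phase responses, had 34.3, 29, 18.3, 16.9 and 36.0 in vehicle and 168, 125, 130, 106 and 169 with indacaterol (log2 change 2.38 ± 0.21), without overlap. CEBPA went from 0.32 to 2.20, KLF4 from 0.74 to 3.09 and KLF9 from 6.91 to 20.3. Among 25 other tested transcription factors 9 rose and none fell (median 0.40). ZNF331, a zinc-finger protein, had 17.0, 12.5, 18.8, 16.2 and 8.33 against 62.9, 126, 158, 130 and 48.3 (2.68 ± 0.30), again with replicates 1 and 5 lowest among the treated. CITED4, a CBP/p300 co-activator, went from 27.7 to 156, and TBX3, a T-box repressor, from 2.02 to 12.7. HES4 was called (48.7 to 92.4) but lost the call without replicate 1 or 5 of indacaterol or replicate 2, 3 or 4 of vehicle. Of 18 tested clock genes PER1, BHLHE40 and NFIL3 rose, and CIART, a repressor of the clock, was lower (11.4 to 7.08).

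**Figure D3:**
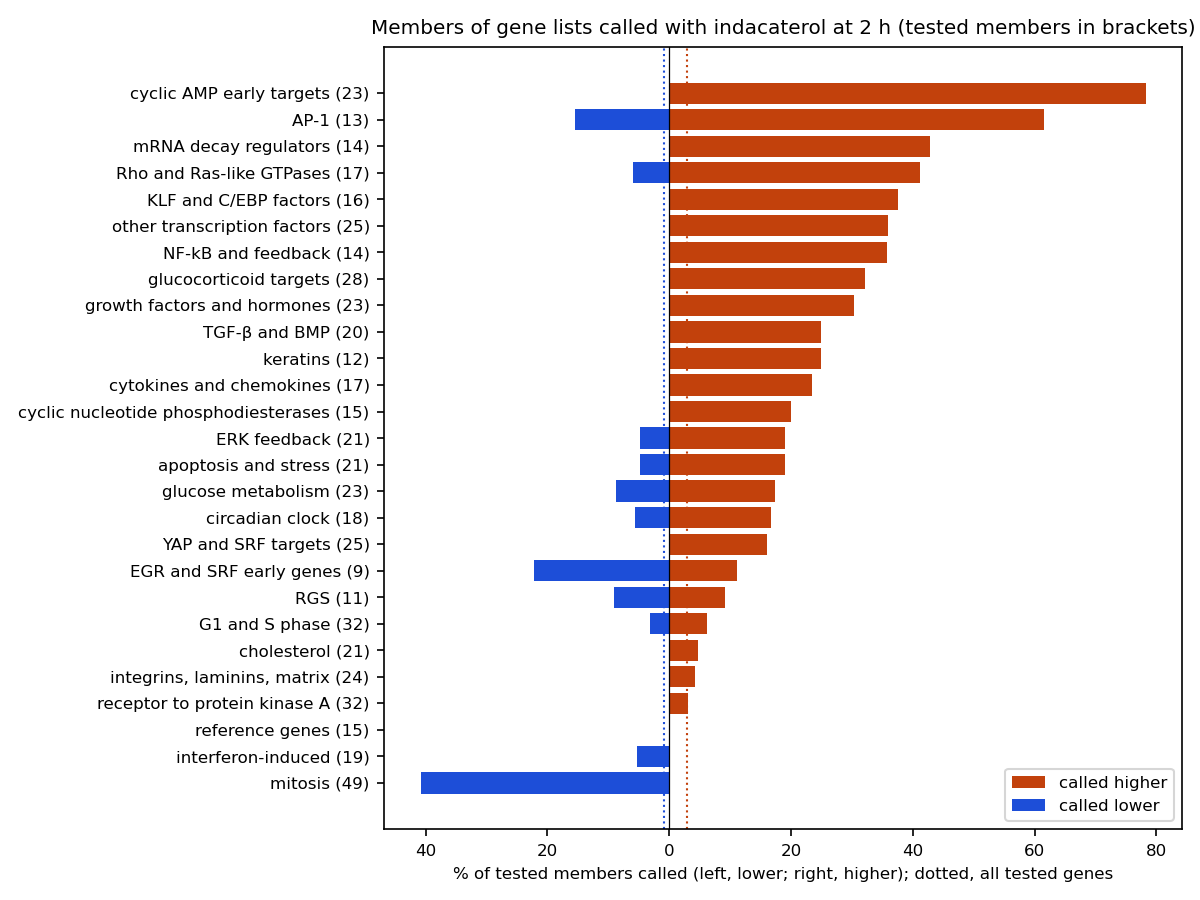
Percentage of tested members of each gene list called higher (right) or lower (left) with indacaterol at 2 h, with the number tested in brackets; dotted lines mark the 2.99% and 0.911% of all tested genes. Cyclic AMP targets (18 of 23) and AP-1 genes (8 of 13) have the longest bars to the right, and mitosis genes (20 of 49) the longest to the left.

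Of 28 tested genes known as glucocorticoid targets, 9 rose and none fell (median 0.37), where 2.99% of all tested genes rose. With the replicate block 14 rose. The cells of these 10 libraries were given no glucocorticoid. CRISPLD2, a secreted protein known from airway responses to steroids, was the second largest rise, with 1.02, 0.55, 1.07, 0.99 and 0.89 in vehicle and 22.4, 18.3, 26.7, 25.0 and 25.5 with indacaterol. The groups were far apart, and the lowest treated library was replicate 2 (log2 change 3.69 ± 0.31, adjusted p = 2.97e-19). SGK1, a kinase that keeps epithelial sodium channels at the surface, had 10.7, 12.9, 10.6, 14.1 and 8.67 in vehicle and 78.6, 182, 221, 217 and 85.0 with indacaterol (3.55 ± 0.29). DDIT4, an inhibitor of mTORC1, went from 34.6 to 105 (1.52 ± 0.20). RGS2, CEBPD, DUSP1, PER1, KLF9 and NFKBIA, named above, complete the 9. The lists overlap, since RGS2, DUSP1 and PER1 are also counted among the early targets of cyclic AMP. CEBPD and KLF9 are also counted in the KLF and C/EBP group, and NFKBIA among the NF-κB genes.

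Epithelial and surface proteins were among the largest rises. DMBT1, a mucosal scavenger receptor of host defence, had 1.35, 3.70, 1.59, 3.61 and 0.91 in vehicle and 32.5, 41.0, 47.8, 57.3 and 18.2 with indacaterol (log2 change 3.64 ± 0.49). It was the only one called of 8 tested defence genes. KRT17, a keratin of basal and injured epithelium (chr17:41619441-41624842), had 515, 599, 407, 441 and 861 in vehicle and 4951, 4268, 2915, 3523 and 4113 with indacaterol, and replicate 1 was the highest (2.84 ± 0.24). KRT16, next to it and similar in sequence, went from 0.42 to 5.36, and reads may be divided between these keratins. KRT81 was the other of the 3 called among 12 tested keratins and lost its call without replicate 1 or 5 of indacaterol. CD200, a ligand that restrains myeloid cells, had 2.26, 2.77, 3.17, 2.57 and 2.95 in vehicle and 23.2, 22.8, 30.7, 24.3 and 23.7 with indacaterol (2.79 ± 0.21), with replicate 3 above the others. TM4SF1, a membrane protein of cell migration, had 25.0, 28.4, 25.9, 32.5 and 32.6 against 168, 164, 152, 193 and 174 (2.52 ± 0.20). GAS1, a cell surface protein first found in growth-arrested cells, went from 14.7 ± 4.09 to 89.4 ± 18.2 (2.54 ± 0.26).

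RHOB, a small GTPase induced early by many stimuli, led its family. Its values were 15.3, 19.4, 23.9, 16.7 and 16.4 in vehicle and 129, 237, 244, 196 and 168 with indacaterol (log2 change 3.32 ± 0.24). Replicate 1 was again the lowest treated library. RND3, which opposes RHOA, went from 56.3 to 138 (1.27 ± 0.13), and GEM and RRAD, GTPases that inhibit calcium channels, from 2.76 to 7.74 and from 0.38 to 1.80. In all 7 of 17 tested members of this group rose and 1 fell. The fall, of the CDC42 effector CDC42EP3 (43.1 to 22.4), was lost without replicate 1 of indacaterol or replicate 3 of vehicle (adjusted p = 0.0961 and 0.0856). Among 25 tested targets of YAP and SRF 4 rose (LATS2, CCN2, EDN1 and NUAK2) and none fell, with a median of 0.02. LATS2, a kinase that inhibits YAP, went from 35.7 to 137 (1.89 ± 0.30), and the matrix protein CCN2, a YAP target, from 99.2 to 264 (1.38 ± 0.23).

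In a list of mRNA decay and translation regulators 6 of 14 tested genes rose and none fell, and 11 rose with the replicate block. Of the 14, 13 had a change above 0, with a median of 0.53. CPEB4, which binds cytoplasmic polyadenylation elements, went from 4.41 to 21.4 (log2 change 1.93 ± 0.39). TOB1 and BTG1, which recruit the CCR4-NOT deadenylase, went from 53.3 to 143 and from 28.9 to 68.5. CSRNP1, listed here, is known as a transcription factor and not as a decay factor.

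Glucose handling moved in 2 directions. Of 23 tested genes 4 rose and 2 fell. SLC2A3, the high-affinity glucose transporter GLUT3, had 10.1, 14.7, 16.0, 13.1 and 7.86 in vehicle and 68.0, 87.4, 88.4, 114 and 55.1 with indacaterol (log2 change 2.64 ± 0.33). TXNIP, an arrestin-like protein that lowers glucose uptake, had 176, 170, 175, 179 and 148 in vehicle and 50.8, 73.6, 32.7, 80.3 and 63.3 with indacaterol. No treated library came within the vehicle range, and TXNIP fell by 1.54 ± 0.29 (adjusted p = 4.44e-05). Its relatives ARRDC3 and ARRDC2 rose (ARRDC3 from 7.42 to 25.7), and ARRDC4 was called lower (15.8 to 8.35), a call lost without replicate 5 of indacaterol or replicate 4 of vehicle.

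The largest group of falls was mitotic. All 49 tested genes of mitotic kinases, cyclins, motors and spindle proteins had a change below 0, with a median of -0.44 (0.01 over all tested genes), where 7057 of 14827 genes lay below 0. Of the 49, 20 fell and none rose, where 0.911% of all tested genes fell. With the replicate block 33 fell. Without replicate 1 of indacaterol 17 fell, 47 lay below 0 and the median was -0.37. In bulk RNA, fewer cells in mitosis and less RNA per mitotic cell cannot be told apart. FAM83D, which brings casein kinase 1 to the spindle (chr20:38926312-38953106), had 65.0, 73.3, 82.6, 74.8 and 68.6 in vehicle and 25.9, 30.3, 36.6, 28.2 and 35.8 with indacaterol. PLK1, the polo-like kinase of mitotic entry, had 135, 136, 138, 132 and 172 in vehicle and 70.4, 78.1, 75.3, 64.8 and 83.2 with indacaterol. Both genes gave well-separated groups, and replicate 1 of indacaterol lay within the range of the other treated libraries for PLK1 and just below it for FAM83D. FAM83D fell by 1.2 ± 0.11 (adjusted p = 1.11e-16) and PLK1 by 0.93 ± 0.12 (adjusted p = 1.44e-09).

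The kinase AURKA and its partners in activating PLK1 moved the same way. AURKA had 116, 141, 131, 149 and 104 in vehicle and 52.5, 66.2, 74.6, 80.7 and 59.7 with indacaterol. BORA, the cofactor with which AURKA activates PLK1, had 9.50, 10.9, 12.6, 12.4 and 8.35 against 4.63, 5.09, 5.54, 5.55 and 3.56. In both genes replicates 1 and 5 were the lowest libraries of the treated and of the vehicle group. AURKA fell by 0.93 ± 0.13 and BORA by 1.00 ± 0.16. CCNB1, cyclin B1, had 294, 294, 273, 312 and 312 in vehicle and 148, 215, 198, 183 and 190 with indacaterol, and fell by 0.68 ± 0.11 (adjusted p = 7.47e-07). CCNF, cyclin F, had 20.8, 17.0, 20.7, 18.9 and 19.2 against 13.1, 8.05, 7.66, 8.34 and 9.80, and fell by 0.99 ± 0.13. CDCA8, borealin of the chromosomal passenger complex, had 60.3, 63.9, 72.9, 67.9 and 61.4 against 33.0, 36.4, 36.4, 33.8 and 31.5, and fell by 0.91 ± 0.07 (adjusted p = 2.55e-21). TOP2A, which is already abundant in S phase, had 272 ± 28.5 and 278 ± 88.7 and was not called.

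Many mitotic promoters carry the cell cycle homology region, a short element bound by the DREAM and MuvB complexes, one form of which reads TTTGAA. The 150 bases before the start of PLK1 (chr16:23678739-23678888, plus strand, RefSeq, GRCh38.p14) are printed because they hold it, 29 bases before the start, in capitals. PLK1 was chosen for this after its values were seen.
PLK1: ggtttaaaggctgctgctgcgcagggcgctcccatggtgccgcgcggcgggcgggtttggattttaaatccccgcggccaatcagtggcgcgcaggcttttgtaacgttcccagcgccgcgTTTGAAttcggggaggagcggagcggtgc
The same 6 letters, on either strand of the windows described above, were found in 27 of 43 matched mitosis genes (62.8%), in 10 of the 16 matched among the 20 that fell (62.5%) and in 18.2% of all 27305 genes. The members that fell and the whole list thus held the letters in nearly the same share.

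Other cell cycle genes moved at single points. Of 32 tested genes of G1 and S phase 2 rose and 1 fell, where 2.99% of all tested genes rose and 0.911% fell. The median of the 32 was -0.04. The phosphatase CDC25A, which activates cyclin-dependent kinases, was called higher, but the call was lost without replicate 3 or 4 of indacaterol or replicate 1 or 5 of vehicle (adjusted p = 0.0661, 0.147, 0.0809 and 0.104), which left 1 rise. CDKN1A, the inhibitor p21, had 105, 109, 116, 90.3 and 108 in vehicle and 152, 220, 217, 198 and 179 with indacaterol, without overlap, and rose by 0.85 ± 0.12 (adjusted p = 4.48e-09). CCND1, cyclin D1, had 61.5, 61.0, 72.8, 64.0 and 40 against 29.1, 33.3, 45.9, 36.7 and 27.6, where the groups overlap at vehicle replicate 5. It fell by 0.77 ± 0.17 (adjusted p = 0.000698), a call lost in the limma fit of only the groups compared (adjusted p = 0.069). HYLS1, a centriole protein needed for cilia, had 7.55, 5.64, 6.35, 7.36 and 9.08 against 2.60, 3.34, 1.97, 3.37 and 3.84, and fell by 1.03 ± 0.19. Among 21 tested apoptosis and stress genes 4 rose and 1 fell. BCL2L11, the pro-apoptotic protein BIM, went from 10.2 to 29.2 (1.42 ± 0.19). Of 15 reference genes none was called, with a median of 0.16. With the replicate block, which called more of all tested genes, 4 rose and 1 fell. GAPDH had 4639 ± 1295 and 5111 ± 869.

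The set of genes called differed between times. Against its own vehicle, indacaterol raised 193 genes at 1 h (1.3%), 139 at 6 h (0.937%) and 20 at 18 h (0.135%). It lowered 15 (0.101%), 119 (0.803%) and 10 (0.0674%). Of the 444 rises at 2 h, 173 (39.0%) were also called higher at 1 h, where they made up 89.6% of the rises. At 6 h 80 (18.0%) were called higher, 57.6% of the rises there, and at 18 h 10 (2.25%). No other time called 224 of the 444 (50.5%) or 111 of the 135 falls (82.2%). A gene not called at another time was not thereby shown to be unchanged there. The sign was the same as at 2 h in 436, 350 and 297 of the 444 rises at 1, 6 and 18 h. For the 135 falls it was the same in 124, 79 and 57. Of the 135 falls 10 were also called at 1 h, 15 at 6 h and 1, OXTR, at 18 h. Without replicate 1 of indacaterol at 2 h, 175, 76 and 10 rises and 11, 9 and 1 falls were shared with 1, 6 and 18 h. The 7 genes called higher at all 4 times were CCL2, CD200, CEBPD, CFAP251, LPL, PDE10A and TCF21. CSRNP1 rose at 2 h and was called lower at 6 h, and STAMBPL1 did the reverse. The rise of CSRNP1 lost its call without replicate 2, 3 or 4 of indacaterol or 1, 4 or 5 of vehicle.

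The difference between times was tested directly. It was called in 18 genes for 2 h against 1 h (0.121% of those tested), in 224 against 6 h (1.51%) and in 257 against 18 h (1.73%). Between 2 h and 1 h the effect of indacaterol was higher at 2 h in 14 genes (0.0944%) and lower in 4 (0.027%), and with the replicate block in 129 and 60. Without replicate 1 of indacaterol at 2 h the first count was 8, and without replicate 4 of vehicle it was 6. A fit of only the 4 groups compared called none in either direction, with adjusted p of 0.278 for CRISPLD2 and CDCA8 and 0.307 for TM4SF1. CRISPLD2 was still low at 1 h (3.62 ± 3.52 against 0.73 ± 0.24 in vehicle), so its effect was larger at 2 h by a log2 of 2.58 ± 0.44 (adjusted p = 0.000283). TM4SF1 (91.2 ± 36.9 against 34.7 ± 3.97 at 1 h) and BDNF (36.4 ± 9.66 against 12.8 ± 2.29) were also more affected at 2 h, by 1.24 ± 0.28 and 0.83 ± 0.19, although BDNF lost that call without replicate 2 or 3 of indacaterol or replicate 4 of vehicle (adjusted p = 0.0505, 0.0857 and 0.0671). Without the libraries over 20% mitochondrial, TM4SF1, BDNF and DUSP1 were not called (adjusted p = 0.286, 0.0818 and 0.255). DUSP1 had gone the other way, with 480 ± 137 against 51.1 ± 5.88 at 1 h, and its effect was smaller at 2 h by 1.12 ± 0.25 on the log2 scale (adjusted p = 0.0219), a call lost without replicate 1 or 5 of indacaterol (adjusted p = 0.113 and 0.0754). The other 3 genes with a lower effect at 2 h were the mitotic genes FAM83D, CDCA8 and CDCA2. CDCA8 had 59.6 ± 3.97 in vehicle and 50.9 ± 7.11 with indacaterol at 1 h, against the clear separation at 2 h given above (difference of effects -0.68 ± 0.10, adjusted p = 6.70e-06).

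**Figure D4:**
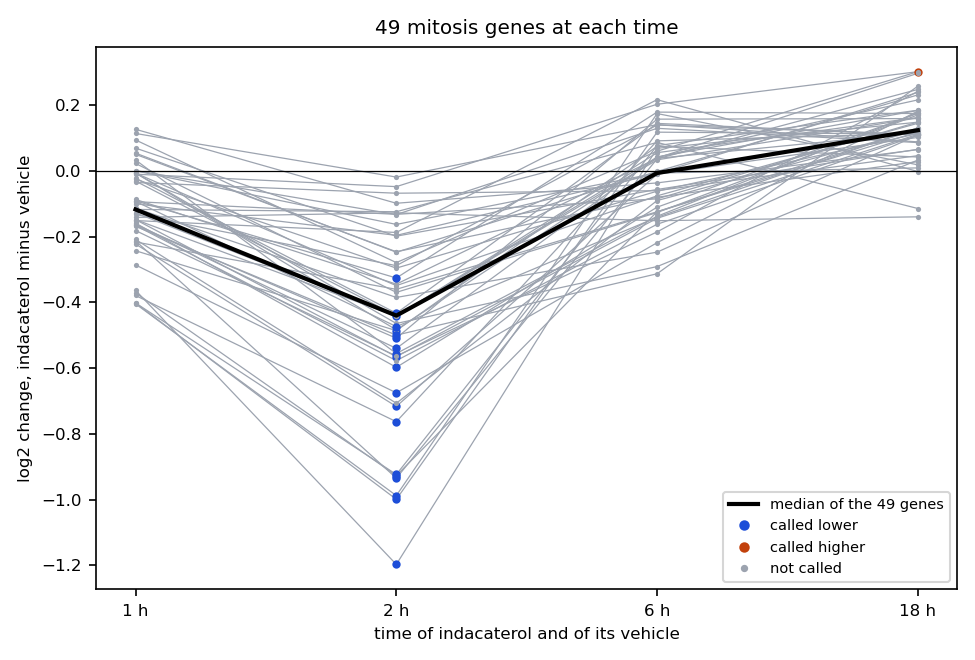
Log2 change between indacaterol and its own vehicle (vertical axis) at 1, 2, 6 and 18 h (horizontal axis) for 49 mitosis genes; lines join a gene, the thick line is the median, and coloured points passed the test. The median runs from -0.12 at 1 h to -0.44 at 2 h, -0.01 at 6 h and 0.12 at 18 h.

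The mitotic fall was not called at any other time. At 1 h none of the 49 genes was called lower, with a median of -0.12 and 39 below 0. At 6 h none was called, and the median was -0.01. At 18 h 46 of 49 lay above 0 with a median of 0.12, and CDC25B was called higher. Direct tests gave 1 gene of the list with a lower effect at 2 h than at 1 h, 13 than at 6 h and 18 than at 18 h. FAM83D at 6 h had 73.6 ± 8.21 in vehicle and 77.2 ± 8.38 with indacaterol. At 2 h its effect was lower than at 6 h by 1.26 and lower than at 18 h by 1.34 on the log2 scale (adjusted p = 7.92e-10 and 2.25e-10).

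Few early targets of cyclic AMP were called after 2 h. Of the 23 tested, 17 were called higher at 1 h, 18 at 2 h, and 1 each at 6 h and 18 h. The median change was 1.42, 1.43, 0.13 and 0.07. The effect was larger at 2 h than at 6 h in 172 tested genes (1.16%) and smaller in 52 (0.351%), and larger than at 18 h in 215 (1.45%) and smaller in 42 (0.283%). With the replicate block these counts were 604, 235, 630 and 263. NR4A3 had 1.61 ± 0.64 with indacaterol at 6 h against 0.32 ± 0.14 in vehicle, and SGK1 23.0 ± 8.72 against 13.2 ± 3.93. IL6 stood at 1.79 ± 0.49 against 2.76 ± 1.60 at 6 h, after 59.6 ± 6.17 against 2.56 ± 0.34 at 1 h. Some genes moved later. SMOC1, a matricellular antagonist of BMP, had 6.04, 3.46, 3.91, 3 and 6.40 in vehicle and 42.1, 12.3, 9.28, 12.3 and 23.8 with indacaterol at 2 h, with replicate 1 the highest. It had 5.65 ± 1.39 against 55.4 ± 5.25 at 6 h, and its effect at 2 h was larger than at 1 h by 1.56 and smaller than at 6 h by 1.36 on the log2 scale (adjusted p = 0.0349 and 0.0252). Neither difference for SMOC1 is firm, since the first was lost without replicate 1 or 5 of indacaterol or 2, 3 or 4 of vehicle, and the second without 2, 3 or 4 of indacaterol or 1 or 5 of vehicle. NCKAP5 and SPTLC3 were not called at 2 h (log2 changes 0.04 and 0.16), and their effects were larger at 6 h by 1.78 and 1.34.

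**Figure D5:**
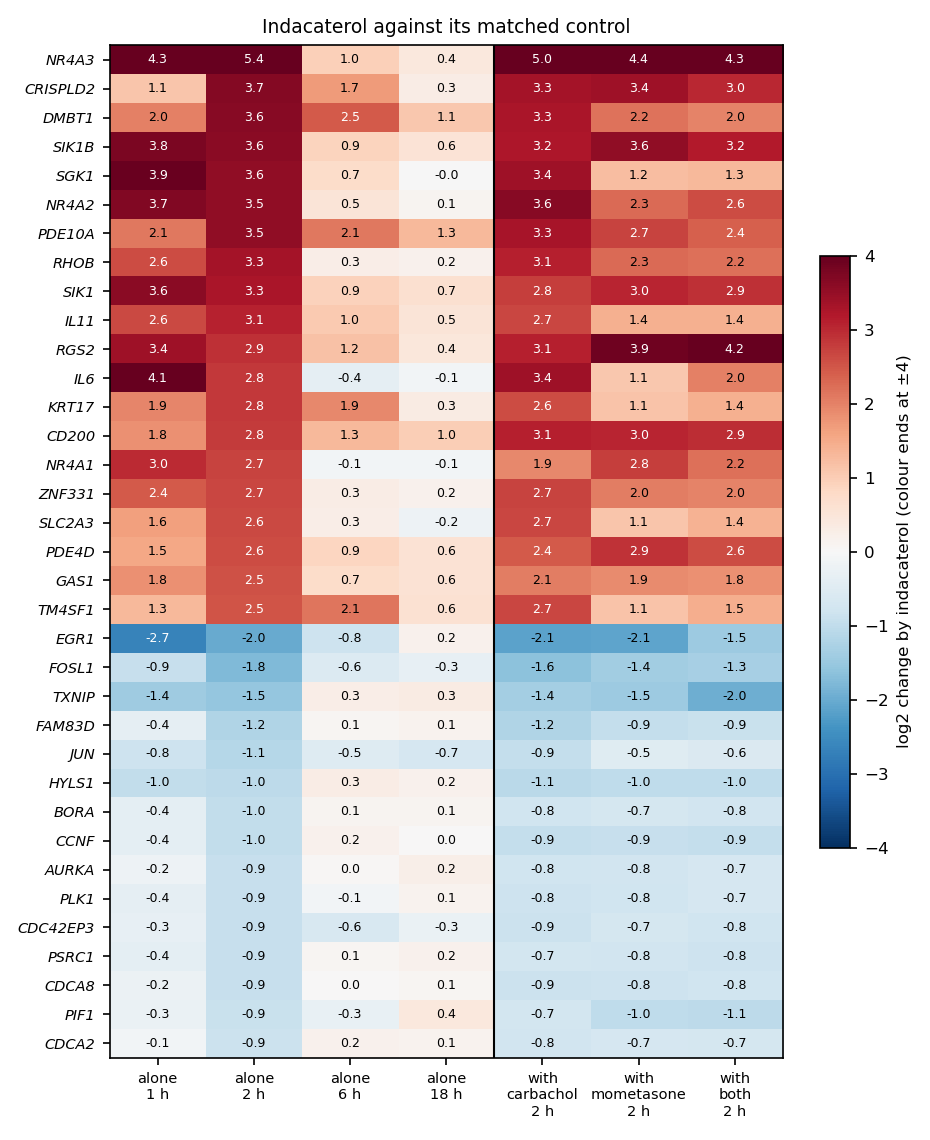
Log2 change by indacaterol (colour, ends at ±4) for the 20 largest rises and 15 largest falls at 2 h, against vehicle at 1, 2, 6 and 18 h and, at 2 h, on top of carbachol, mometasone or both; each column uses its own libraries. Colours are strong at 1 and 2 h and pale at 6 and 18 h in most rows, and SGK1, IL6 and KRT17 are paler in the columns with mometasone.

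The response at 2 h recurred on the other backgrounds, which share no library with it. Indacaterol added to carbachol raised 432 genes (2.91%) and lowered 182 (1.23%). Added to mometasone it raised 543 (3.66%) and lowered 158 (1.07%), and added to both it raised 465 (3.14%) and lowered 190 (1.28%). Of the 444 rises, 350 were also called higher with carbachol (78.8% of the 444 and 81.0% of that list). The counts were 300 with mometasone (67.6% and 55.2%) and 284 with both (64.0% and 61.1%). In all 3 backgrounds 232 (52.3%) were called, in none 43 (9.68%), and no gene was called in the opposite direction. Of the 135 falls 95, 65 and 73 recurred, 52 in all 3 and 27 in none. Without replicate 1 of the 5 libraries given indacaterol only, 328, 287 and 279 rises recurred with carbachol, mometasone and both. For the falls the counts were 72, 64 and 67, and 229 rises and 51 falls were called in all 3. Replicate 1 of indacaterol with carbachol also had a high mitochondrial share, 28.3% against 13.7% in replicate 1 of carbachol. The mitosis list gave 20, 17 and 17 falls of 49 and no rise in these 3 backgrounds.

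In every background FAM83D was among the falls, at -1.2 alone, -1.2 with carbachol, -0.94 with mometasone and -0.89 with both, and HYLS1 was close to -1 in each (-1.03, -1.08, -1.02 and -1.01). CRISPLD2 rose by 3.69, 3.33, 3.39 and 3.02, although mometasone alone already held it at 3.64 ± 0.91. The difference between backgrounds was tested in an analysis added after the data were seen. The effect with carbachol differed from that alone in 1 gene (0.00674%, TCIM, higher). In all it differed in 60 genes with mometasone (0.405%) and in 56 with both (0.378%). With mometasone it was higher in 38 genes (0.256%) and lower in 22 (0.148%), and with both it was higher in 29 (0.196%) and lower in 27 (0.182%). With the replicate block these counts were 160 and 134, and 108 and 139. Without replicate 4 of mometasone with indacaterol, 25 genes were higher in place of 38. SGK1, raised by mometasone alone to 81.4 ± 16.3, rose from there by 1.24, against 3.55 alone (difference -2.32 ± 0.41, adjusted p = 0.000117). IL6 and KRT17 also responded less on mometasone, by -1.76 ± 0.33 and -1.70 ± 0.34 (adjusted p = 0.000339 and 0.00128). These differences between backgrounds were not refitted with another pseudocount or scaling.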

How the data were processed

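Expression was measured by RNA sequencing of total RNA. Tools in the submitters' processing notes are STAR 2.4.2a and bcl2fastq 2.17.1.14, with the genome GRCh38. The labels' protocols mention 2 sequencing kits without tying them to samples. How genes were quantified, and whether strand was used, is not given in the sources used here. Deposited by the authors is a single table. Its values are a normalised signal per gene, called TPM by the authors, whose columns sum to different totals. The design had assumed TPM, and the same test was used. Depth is unknown, so precision comes from the spread between replicates, and no counting interval is given. Of the deposited columns 10 were not used, 4 marked as excluded and 6 headed 8 h, which left 150 libraries.

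Of 29273 genes, 14827 reached 1 in 5 or more libraries and were tested, and 14446 were not. Values entered as log2(value + 1) in limma 3.58.1 (R 4.3.3, the data.table package at 1.17.8), with 1 coefficient for each of 32 groups, 118 residual degrees of freedom and a mean-variance trend. Benjamini-Hochberg adjustment ran within each comparison, and genes were called at 0.05. The model was also run on simulated data with independent libraries, which does not bear on the correlation between same-numbered libraries. Coordinates come from GENCODE 29 on GRCh38 (27927 symbols matched) and promoters from RefSeq.

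Members and lists were chosen with earlier results of these data known. The text names the 20 largest rises and 15 largest falls that changed the same way in all 5 pairs with a mean of at least 5, leaving out pseudogenes. It also names up to 4 called and 4 abundant members of each list, the 6 largest differences between times in each direction, and the 5 largest changes each way shared by all backgrounds. Members of the receptor and phosphodiesterase lists, the marker lists and gene families given in the closing section were also open to naming, the last after their values were seen. RNA5SP283, CFAP251, TCF21, OXTR, CDC25B, FOS, MAFF, BMP2, ARRDC2 and ETV4 were named because a count is small, after their values were seen.

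Replicate numbers come from the titles, and nothing says what they stand for. The main fit had no term for them. They paired libraries only in the replicate block and in the choice of genes to name. The deviations of same-numbered libraries from their group means correlated at 0.443, 0.142, 0.613, 0.540 and 0.601. Not every library correlated best with its own number. Replicate 1 of indacaterol correlated at 0.540 with vehicle replicate 5. Replicate 2 of vehicle correlated at 0.3245 with indacaterol replicate 3 and at 0.309 with indacaterol replicate 4. Alternatives were a pseudocount of 0.1, other filters, median-ratio and TMM-type scaling, the replicate block, fits of fewer groups, the mitochondrial share as a covariate, and leaving out libraries.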

Additional observations from a re-analysis of the deposited data

Results flagged for a closer look

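Single libraries stood apart from the other 4 of their group in 5 of the 94 groups of 5 examined, about the 1 in 20 that chance gives. Replicate 1 of indacaterol at 2 h had 27.7% of its summed values in mitochondrially encoded genes. CD200 was 30.7 in replicate 3 of indacaterol, FOSL1 was 29.2 in replicate 2 of indacaterol, PLK1 was 172 in replicate 5 of vehicle, and CGA was 0.53 in replicate 1 of vehicle. The mitochondrial share was not above 20% in any other library of these 10. Over all 150 libraries it was above 20% in 6, and every one of them was a replicate 1. They include indacaterol at 1 h (21.3%) and indacaterol with carbachol at 2 h (28.3%). The count of groups flagged does not bear on this pattern, whose cause was not tested.

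The effect of indacaterol differed between times by a direct test (limma, adjusted p below 0.05) in 18 genes for 2 h against 1 h, in 224 for 2 h against 6 h and in 257 for 2 h against 18 h. Between 2 h and 1 h the log2 difference was 2.58 for CRISPLD2, 1.56 for SMOC1, 1.39 for CES3, 1.34 for RAP1GAP2, 1.24 for TM4SF1 and 1.13 for IL15. It was -1.12 for DUSP1, -0.83 for FAM83D, -0.74 for CDCA2 and -0.68 for CDCA8. CES3 lost this call without replicate 1 of indacaterol (adjusted p = 0.132) or replicate 4 of vehicle (0.0667). CES3 is a carboxylesterase, RAP1GAP2 switches off the GTPase RAP1, and IL15 is a cytokine of lymphocytes.

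Between 2 h and 6 h the difference was 4.41 for NR4A3, 3.20 for IL6, 3.06 for RHOB, 3.03 for NR4A2, 2.82 for SGK1 and 2.81 for NR4A1. In the other direction it was -1.81 for TXNIP, -1.78 for NCKAP5, -1.63 for PDE7B, -1.36 for SMOC1, -1.34 for SPTLC3 and -1.32 for HYLS1. TXNIP and HYLS1 fell at 2 h and had changes above 0 at 6 h, which were not called, while NCKAP5, PDE7B, SMOC1 and SPTLC3 rose at 6 h.

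Between 2 h and 18 h the difference was 4.93 for NR4A3, 3.58 for SGK1, 3.42 for NR4A2, 3.38 for CRISPLD2, 3.14 for RHOB and 3.06 for SIK1B. It was -1.87 for TXNIP, -1.45 for FOSL1, -1.34 for FAM83D, -1.30 for PIF1, -1.19 for HYLS1 and -1.18 for AURKA, with PIF1 losing the call without replicate 3, 4 or 5 of indacaterol or any 1 of the vehicle libraries but replicate 5. Between backgrounds at 2 h the effect differed from that alone in 1 gene with carbachol, in 60 with mometasone and in 56 with both.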

How the results depend on the processing

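With the replicate block, indacaterol against vehicle gave 974 rises and 543 falls in place of 444 and 135 (828 and 458 also without replicate 1 of indacaterol), and added to carbachol 1324 and 905, to mometasone 1419 and 694, and to both 1003 and 796. The difference between times with the block was higher and lower in 129 and 60 genes for 2 h against 1 h, 604 and 235 against 6 h, and 630 and 263 against 18 h. For the difference between backgrounds it gave 4 lower with carbachol, 160 and 134 with mometasone and 108 and 139 with both. Fitting only the groups compared gave 273 rises and 40 falls for indacaterol against vehicle, and 252 and 61 with carbachol. It gave 74 falls with mometasone, 116 falls with both, and 0 and 0 for 2 h against 1 h. These fits have fewer degrees of freedom, and the cause of their lower counts was not tested. The comparison of 2 h with 1 h, 14 higher and 4 lower in the main fit, also gave 32 and 7 with the mitochondrial share as a covariate. It gave 6 higher without libraries over 20% mitochondrial, and 7 lower with median-ratio scaling. The cause was not tested. Where this paragraph gives a single direction, the count in the other direction is left out, which does not mean that there were none.

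Leaving out 1 library at a time gave 403 to 446 rises and 100 to 138 falls for indacaterol against vehicle, 381 to 462 and 124 to 180 with carbachol, 449 to 576 and 117 to 153 with mometasone, and 397 to 462 and 133 to 172 with both. For times the ranges were 6 to 17 and 3 to 5 for 2 h against 1 h, 138 to 180 and 43 to 63 against 6 h, and 191 to 215 and 34 to 42 against 18 h. For backgrounds they were 1 and 0 throughout with carbachol, 25 to 42 and 18 to 23 with mometasone, and 23 to 32 and 21 to 30 with both. The mitochondrial share differed by 1.75 points, and by -1.64 to 3.10 points when a library was left out. TMM-type scaling gave 433 rises and 172 falls, and median-ratio scaling 446 and 162.

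Of 168 named genes called, 117 kept the call in all 22 alternatives, 51 lost it in at least 1, and none reversed. The limma fit of only the groups compared lost 45 of these calls, and 23 were lost when it had the replicate block. Among the 45 were BHLHE40, CCND1, CIART, CPEB4, CYP26B1, DUSP10 and FST (adjusted p = 0.0917, 0.069, 0.0751, 0.0751, 0.0759, 0.0915 and 0.0821). Unknown depth limits what can be said of genes near 0.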

Other observations

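Some gene families outside the lists above also moved, and they were picked after their values were seen. Over all tested genes 2.99% rose and 0.911% fell. Because of how the families were picked, setting their counts against these shares is not a test. Of 7 tested ligands of NKG2D, the activating receptor of natural killer cells, ULBP1, ULBP2 and ULBP3 rose. ULBP2 went from 7.46 ± 1.65 to 16.7 ± 2.30 (SD, n = 5 in each group here and below). Of 13 surface regulators of immune cells and complement 7 rose and none fell. CD274, which encodes PD-L1, went from 1.73 ± 0.67 to 5.71 ± 1.81, CD55, which dissolves complement convertases, from 79.4 ± 7.23 to 158 ± 24.3, and CD24 from 38.6 ± 14.3 to 211 ± 43.0. Among the Iroquois homeobox genes, which pattern airway and other epithelia, 3 of 4 tested rose. IRX2 went from 29.5 ± 2.72 to 70.8 ± 2.54, with 5 treated libraries between 68.1 and 73.6, and IRX1 from 5.61 ± 1.70 to 20.1 ± 5.18. IRX4 lost its call without replicate 1 or 5 of indacaterol or 2, 3 or 4 of vehicle.

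Receptors for other agonists rose in 9 of 22 tested genes and fell in 1, and 5 to 8 rose when 1 library was left out. Without replicate 3 of indacaterol 5 rose, and AGTR1, BDKRB1, F2RL2 and HTR1D lost the call (adjusted p = 0.0546, 0.191, 0.0923 and 0.0654). The endothelin receptor EDNRA went from 0.72 ± 0.26 to 2.32 ± 0.26 and the sphingosine 1-phosphate receptor S1PR1 from 1.02 ± 0.44 to 3.83 ± 1.08, while the oxytocin receptor OXTR went from 46.3 ± 8.05 to 31.4 ± 5.37. In WNT signalling 6 of 11 tested genes rose and 1 fell (2 without replicate 3 of indacaterol or replicate 5 of vehicle). WNT4 went from 0.88 ± 0.36 to 7.44 ± 2.84 and the receptor FZD8 from 0.73 ± 0.21 to 3.18 ± 0.41, while FZD2, another receptor, went from 66.0 ± 9.64 to 43.2 ± 5.47. Of 7 tested IGF binding proteins IGFBP3, IGFBP4 and IGFBP5 rose, and IGFBP3 went from 91.3 ± 12.4 to 146 ± 28.8. In the retinoid and vitamin D group CYP26B1, which degrades retinoic acid, rose from 4.59 ± 2.05 to 13.8 ± 5.45, and the receptor genes VDR, RARA and RARG were called lower. VDR lost the call when any 1 of 8 libraries was left out, RARA without replicate 3 or 4 of indacaterol or 1 or 5 of vehicle, and RARG without 4 or 5 of indacaterol or 1 or 5 of vehicle. A fit of only the groups compared called 2 NKG2D ligands, 7 surface regulators and 2 Iroquois genes higher. It also called 5 receptors for other agonists, 5 WNT genes and 1 IGF binding protein higher, and no retinoid or vitamin D gene either way.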
